A study of Homo sapiens with 6 samples.

Results

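The genes described here are 9 members of the PARP family, PARP1, PARP2, PARP4, PARP8, PARP9, PARP10, PARP11, PARP12 and PARP14, together with DTX3L, whose protein is the partner of PARP9. They were chosen by gene symbol with the siALDOA and siControl values of the same libraries already known, so their fold changes are given as a description and not as a test of the family. All 10 genes were found among the 28278 symbols of the count tables. The cells were HT29, an established human colorectal adenocarcinoma line with epithelial morphology, and RNA was taken 48 h after treatment with an siRNA against the glycolytic enzyme ALDOA (siALDOA, 3 biological replicates) or with a scrambled siRNA (siControl, 3 biological replicates). Both groups received an siRNA, untreated cells were not analysed here, and values from a separate siRNA against ALDOA were not analysed here, so an effect of losing ALDOA and an effect of the siRNA used cannot be told apart.

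The libraries held between 27277538 and 33237914 counts on genes, and ribosomal RNA took between 7.71% and 17.4% of them. Expression is given as CPM, the counts of a gene scaled to a common library size after TMM normalization, and 1 CPM corresponded to between 27.8 and 33 counts. ALDOA itself was at 283, 305 and 279.7 CPM in the siALDOA libraries and at 592, 637 and 668 CPM in the siControl libraries, with a log2 fold change of -1.13 (adjusted p = 6.95e-11 in edgeR's quasi-likelihood test). The groups did not overlap at the target. Of 10 markers of colon epithelium, 9 had enough counts to be tested, with summed levels from 9471 to 9802 CPM with siALDOA and from 10030.0 to 10590.0 CPM with siControl, and LGALS4 was listed at 0 in every library, which cannot be read as absent expression because the gene annotation behind the counts is not given in the sources used here. Of these 9 colon markers, 7 had a negative and 2 a positive log2 fold change. The siALDOA libraries lay entirely below siControl for 4 of them and entirely above for 1, against 14.6% and 13.1% of all tested genes. The keratin KRT18 fell by 0.28 on the log2 scale (adjusted p = 0.0152) and KRT19 rose by 0.38 (adjusted p = 5.77e-04). The part of these markers in the values below was not tested. Of 10 blood cell markers, 2 could be tested and the summed level lay between 3.43 and 4.22 CPM with siALDOA and between 2.41 and 3.67 CPM with siControl, with TYROBP and S100A8 at 0 in every library. Of 7 fibroblast markers, 2 could be tested and the sum lay between 3.16 and 4.36 CPM with siALDOA and between 3.05 and 4.46 CPM with siControl, with COL1A2 at 0 in every library.

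PARP proteins transfer ADP-ribose from NAD+ to proteins and nucleic acids. PARP1 and PARP2 build long chains at DNA breaks and recruit repair factors, while most other members attach single ADP-ribose units or, like PARP9, have little or no activity alone. PARP9, PARP10, PARP12, PARP14 and DTX3L are known interferon-stimulated genes, whose promoters often carry a site with repeated GAAA letters that interferon regulatory factors recognize. DTX3L is a ubiquitin ligase of the Deltex family, and in complex with PARP9 it modifies histones and host or viral proteins.

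PARP9 and DTX3L were both higher with siALDOA. PARP9 was at 338, 433 and 406 CPM in the siALDOA libraries and at 188, 208 and 198 CPM in the siControl libraries. DTX3L was at 377, 397 and 418 CPM with siALDOA against 236, 237 and 238 CPM with siControl. For both genes the lowest siALDOA library lay above the highest siControl library. PARP9 averaged 392 ± 49.0 CPM in siALDOA cells (SD, n = 3) and 198 ± 10 CPM in siControl cells (SD, n = 3). That is a log2 fold change of 0.99 with a standard error of 0.074, a 1.98-fold difference. DTX3L averaged 397 ± 20.9 CPM and 237 ± 1.09 CPM (SD, n = 3 each), so that its log2 fold change was 0.74 with a standard error of 0.056, or 1.68-fold. The ratio of PARP9 to DTX3L in CPM was 0.798, 0.879 and 0.829 in the siControl libraries and 0.897, 1.09 and 0.970 in the siALDOA libraries. The ratio was thus higher in every siALDOA library than in any siControl library, with PARP9 moving further than its partner.

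These genes lie head to head on chromosome 3 of hg38. PARP9 (ENSG00000138496) runs on the minus strand from 122527924 to 122564577, and DTX3L (ENSG00000163840) on the plus strand from 122564338 to 122575203. In RefSeq promoters, which cover 250 bases before and 50 bases after a start site (GRCh38.p14), their nearest start sites were 38 bases apart. The letters GAAANNGAAA, a pattern of interferon regulatory factor sites, occurred in both promoters, and it was the same match, at chr3:122564332-122564341. It begins 41 bases before the PARP9 start site and 6 bases before that of DTX3L, so that it runs past the latter. The reference sequence around it is shown because 1 match lies in the promoters of both genes. A second PARP9 promoter, at chr3:122564735-122565034, held no match. It is written 5′ to 3′ on the strand of PARP9, at chr3:122564322-122564351, with the match in capitals, which is the reverse complement of the pattern.
PARP9 and DTX3L: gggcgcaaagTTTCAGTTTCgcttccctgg
In GENCODE release 44 exons of the pair also overlap by 139 bases on opposite strands, 1.56% of the PARP9 exon bases and 2.41% of those of DTX3L. The strand setting of the counting is not given in the sources used here, so reads from that stretch cannot be assigned to PARP9 or DTX3L with certainty.

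PARP14, the largest macrodomain PARP, had the highest CPM of the 10 genes. It was at 909, 1057 and 1011 CPM in the siALDOA libraries and at 530.1, 533 and 511 CPM in the siControl libraries. Every siALDOA library was above every siControl library, and the siControl values lay close together. PARP14 averaged 993 ± 75.7 CPM in siALDOA cells and 524.5 ± 12.1 CPM in siControl cells (SD, n = 3 each). The log2 fold change was 0.92 with a standard error of 0.064, or 1.89-fold. PARP14 (ENSG00000173193) lies on the plus strand of chromosome 3 from 122680839 to 122730840. Its promoter held the GAAANNGAAA letters from 29 bases before the start site. It also held TTCNNNGAA, a pattern of STAT dimers known as GAS, from 40 bases before it. Both are in capitals in the plus-strand sequence at chr3:122680794-122680823, shown because the patterns stand 2 bases apart.
PARP14: gagttTTCCAGGAAacGAAAGCGAAAgagt

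PARP12 and PARP10, both mono-ADP-ribosyltransferases, were higher with siALDOA as well. PARP12, which carries zinc fingers of the kind that bind RNA, was at 154, 171 and 172 CPM with siALDOA and at 91.4, 97.9 and 95.1 CPM with siControl. The groups did not overlap, and the log2 fold change was 0.81 (standard error 0.062), or 1.75-fold. PARP12 (ENSG00000059378) lies on the minus strand of chromosome 7 from 140023749 to 140062951. The GAAANNGAAA pattern stood in the last 10 bases before its start site, as its reverse complement, shown here on the strand of PARP12 at chr7:140062952-140062981.
PARP12: tttcgccggcccggggccgcTTTCGGTTTC

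PARP10, which was first found as a partner of MYC, was at 163, 214 and 202 CPM with siALDOA and at 85.95, 104 and 95.5 CPM with siControl. Its groups did not overlap, and its log2 fold change of 1.02 (standard error 0.085), or 2.03-fold, was the highest of the 10 genes. PARP10 (ENSG00000178685), on chromosome 8 from 143977153 to 144012772, shares 324 exon bases, 5.37% of its own, with GRINA on the opposite strand. GRINA, counted separately, was at 192 CPM with siALDOA and 170.1 CPM with siControl on average, a smaller difference than that of PARP10. The promoters of PARP10 and PARP4 were not analysed here.

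**Figure D1:**
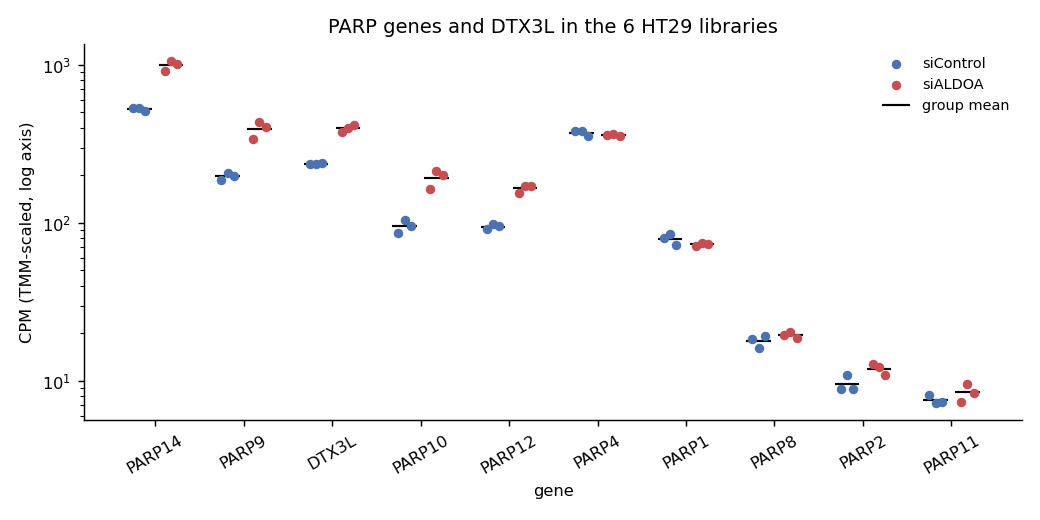
CPM of each gene (log axis) in the 3 siControl and 3 siALDOA libraries, with each point a library and each bar a group mean. PARP14, PARP9, DTX3L, PARP10 and PARP12 are higher in all siALDOA libraries, whereas the points of PARP4, PARP1, PARP8, PARP2 and PARP11 overlap between groups.

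In the siALDOA group, replicate 1 had the lowest value for each of PARP9, PARP10, PARP12, PARP14 and DTX3L. That library also had the largest ribosomal RNA share of the group, 13.1% against 7.71% and 8.11%. In the siControl group, replicate 1 was likewise the lowest for PARP9, PARP10, PARP12 and DTX3L, but not for PARP14. Its ribosomal RNA share was 17.4%. The part of these shares in the lower values was not tested. Without siALDOA replicate 1, the log2 fold changes were 1.08 for PARP9, 1.13 for PARP10, 0.86 for PARP12, 0.98 for PARP14 and 0.78 for DTX3L. ALDOA was at 283 CPM there, within the range of the other siALDOA libraries. Since these are bulk libraries, a larger number of responding cells and more RNA per cell cannot be told apart.

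The DNA repair enzymes PARP1 and PARP2 gave overlapping groups. PARP1, the most abundant nuclear PARP in most cells, was at 71.6, 74.6 and 74.05 CPM with siALDOA and at 80.8, 85.2 and 72.8 CPM with siControl. Its log2 fold change was -0.12 (95% interval -0.26 to 0.022). PARP2 was at 12.75, 12.2 and 10.9 CPM with siALDOA and at 8.915, 11.0 and 8.95 CPM with siControl. The siControl replicate 2 value of PARP2 lay just above the lowest siALDOA value, so that the groups overlapped in a single library. Its log2 fold change of 0.31 (95% interval 0.057 to 0.57) did not pass an adjusted p < 0.05 in edgeR's test.

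PARP4, the vault particle PARP, had the second-highest CPM in siControl cells among the 10 genes. It was at 358, 364 and 356 CPM with siALDOA and at 379.5, 381 and 354 CPM with siControl. The groups overlapped, and the log2 fold change of -0.049 (95% interval -0.16 to 0.065) left room only for small differences. PARP8, a mono-ADP-ribosyltransferase, was at 19.4, 20.4 and 18.7 CPM with siALDOA against 18.5, 16.1 and 19.1 CPM with siControl, a log2 fold change of 0.12 (95% interval -0.078 to 0.33). PARP11, a mono-ADP-ribosyltransferase linked to the nuclear envelope and to interferon receptor turnover, was at 7.365, 9.62 and 8.38 CPM with siALDOA against 8.18, 7.24 and 7.34 CPM with siControl. With 205 to 289 counts per library it was the lowest of the 10 genes, and its log2 fold change of 0.16 had a 95% interval from -0.13 to 0.45. An increase of the size seen in PARP9, PARP10, PARP12, PARP14 or DTX3L lay outside the intervals of PARP1, PARP2, PARP4, PARP8 and PARP11.

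By edgeR's quasi-likelihood test at an adjusted p < 0.05, 5 of the 10 genes were called higher and 0 lower. The count of lower genes was also 0 at an unadjusted p under 0.05, with DESeq2 and with limma-voom. Over all 15307 tested genes 4.36% were called higher and 5.29% lower. The 5 called genes were also those whose siALDOA libraries all lay above the siControl libraries, which was the case for 13.1% of all tested genes, while 0 of the 10 lay entirely below, against 14.6% of all tested genes. The members were chosen with this contrast known, so nothing is read from these shares.

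Of the other PARP family genes, 8 were examined, and all had enough counts to be tested. ZC3HAV1 (PARP13), the zinc finger antiviral protein that marks CpG-rich viral RNA for decay, was at 193, 208 and 219 CPM with siALDOA and at 163, 169.5 and 174 CPM with siControl. Its groups did not overlap, and its log2 fold change was 0.29 with a 95% interval from 0.17 to 0.42, which passed the threshold (adjusted p = 0.00275 in edgeR's quasi-likelihood test). The adjusted p of ZC3HAV1 stayed between 5.88e-05 and 0.0253 over 16 alternative settings. The other 7 genes, PARP3, PARP6, PARP15, PARP16, TNKS, TNKS2 and TIPARP, had overlapping groups and did not pass the test, with log2 fold changes from -0.10 for PARP15 to 0.086 for TNKS. TIPARP, the dioxin-inducible PARP7, averaged 75.6 ± 4.62 CPM in siALDOA cells and 75.99 ± 3.385 CPM in siControl cells (SD, n = 3 each). TNKS2, a tankyrase that acts in Wnt signaling, averaged 93.9 ± 5.99 CPM and 91.35 ± 5.58 CPM in the same order. The 95% intervals of the log2 fold change were narrow for TIPARP, from -0.14 to 0.13, and wider for the low gene PARP3, a DNA repair PARP, from -0.37 to 0.24. The median log2 fold change of the 8 genes was 0.0070, near the 0.0016 of all tested genes.

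**Figure D2:**
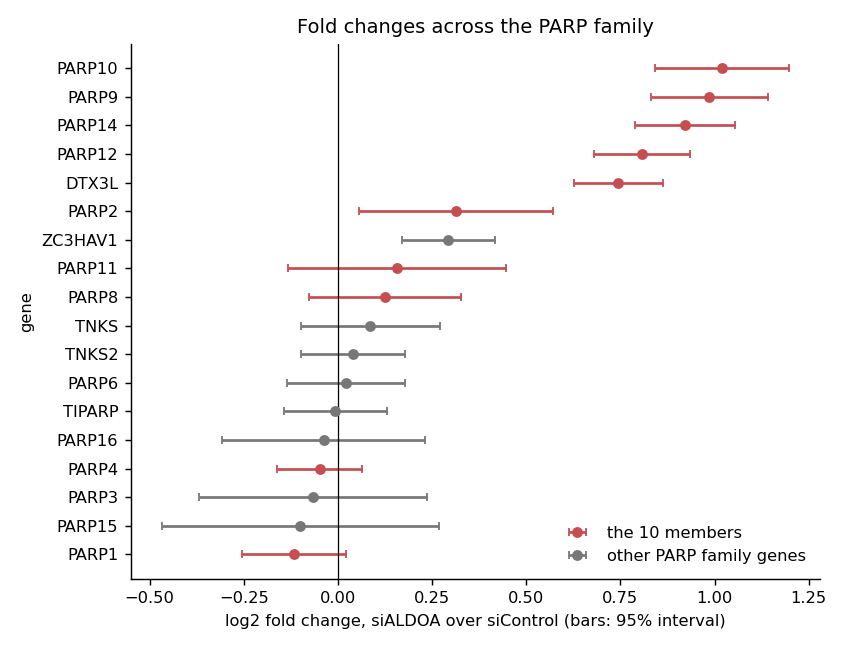
Log2 fold change of siALDOA over siControl for the 10 genes described (red) and 8 other PARP family genes (grey), with bars for the 95% interval from the edgeR fit. PARP10, PARP9, PARP14, PARP12 and DTX3L stand between 0.74 and 1.02, ZC3HAV1 is at 0.29, and the intervals of the remaining genes other than PARP2 include 0.

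The chromosome 3 genes allow a comparison of neighbors. PARP15 (122577628 to 122639047) begins 2424 bases after the end of DTX3L and ends 41791 bases before PARP14, so it stands between genes that were higher. PARP15 was at 5.71, 7.69 and 4.44 CPM with siALDOA and at 6.74, 6.06 and 6.34 CPM with siControl, with 126 to 231 counts per library. Its log2 fold change was -0.10 (95% interval -0.47 to 0.27, adjusted p = 0.788 in edgeR's quasi-likelihood test). Within 300 kb on either side of the 4 genes, 9 further listed genes were found, of which 7 were tested and 0 were called by edgeR, DESeq2 or limma-voom, with 1 at an unadjusted p under 0.05. Over all tested genes edgeR called 4.36% higher and 5.29% lower, so nothing is read from 0 calls among 7 genes. KPNA1, an importin next to PARP9, had a log2 fold change of -0.038 (adjusted p = 0.753), and HSPBAP1, next to PARP14, had 0.33 (adjusted p = 0.292). SLC49A4 was the only tested neighbor whose siALDOA libraries all lay below the siControl libraries, with a log2 fold change of -0.38 (adjusted p = 0.067) that did not pass, and LINC02035 was the only one with all above, at 0.28 (adjusted p = 0.388). Among the 13 listed genes of the region, calls were thus made for PARP9, DTX3L and PARP14 and for no other gene.

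**Figure D3:**
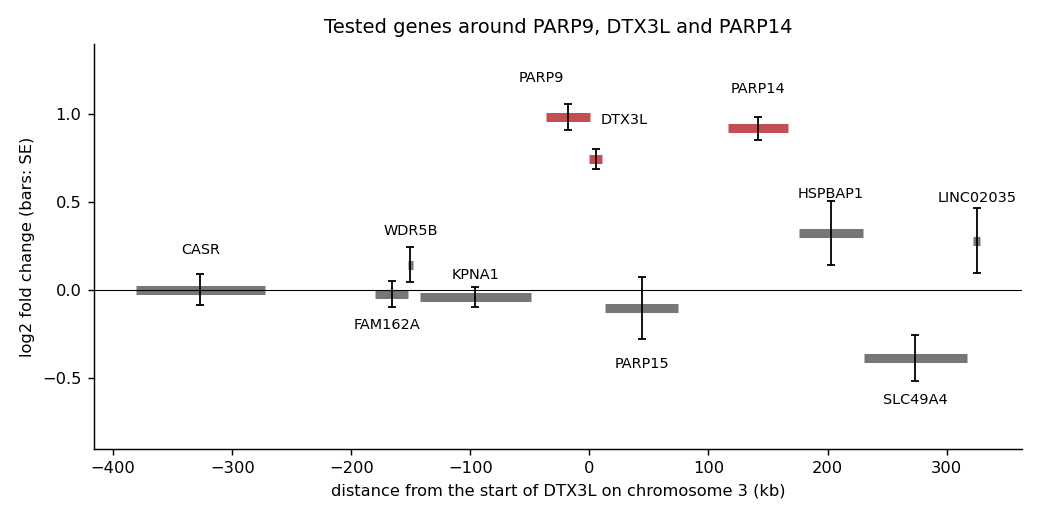
Log2 fold change (bars: standard error) of each tested gene plotted over its span, as the distance in kb from the start of DTX3L on chromosome 3. PARP9, DTX3L and PARP14 (red) lie at 0.99, 0.74 and 0.92, and PARP15 between DTX3L and PARP14 lies at -0.10.

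The promoter patterns can be set beside these values as a description. RefSeq promoters were at hand for 8 of the 10 genes. GAAANNGAAA, searched on both strands, occurred in those of PARP9, DTX3L, PARP12 and PARP14, which were higher, and in none of those of PARP1, PARP2, PARP8 and PARP11, whose groups overlapped. Of 7 other PARP family genes with a promoter, ZC3HAV1 included, 0 held it. Counting matches before the start site only, DTX3L dropped out and 3 of the 8 genes held it. With 1 to 3 bases allowed between the GAAA copies, the same 4 genes and TIPARP held the pattern, as did 9.28% of tested genes and 19.3% of the genes called higher. The pattern was held by 4.38% of all 27305 genes with a RefSeq promoter, by 3.93% of the 11344 tested genes among them, by 14.2% of 513 genes called higher and by 2.53% of 633 genes called lower. TTCNNNGAA, which reads the same on both strands, was less selective, with 8.40% of tested genes, 11.3% of the genes called higher and 7.58% of those called lower. It occurred for PARP14 and ZC3HAV1, which were higher, and also for PARP2 and PARP15, which were not called. A match shows letters in a window and not that a factor binds there.

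Levels between genes were compared per kb of exon, using the union of GENCODE exons. In siControl libraries the order began with PARP4 at 61.5 ± 2.51 CPM per kb (SD, n = 3), PARP14 at 51.1 ± 1.18, DTX3L at 41.1 ± 0.189 and PARP9 at 22.2 ± 1.12. The ranges of these neighbors in the order did not overlap. ZC3HAV1 followed at 19.9 ± 0.619 CPM per kb. PARP12 at 17.2 ± 0.593, TIPARP at 15.8 ± 0.705, PARP10 at 15.8 ± 1.52 and TNKS2 at 14.6 ± 0.894 CPM per kb overlapped from each to the next. PARP1 was at 4.33 ± 0.342 CPM per kb, overlapping PARP6, and PARP2 at 2.37 ± 0.290, overlapping PARP3. PARP8 at 1.77 ± 0.158, PARP11 at 1.22 ± 0.0828 and PARP15 at 1.16 ± 0.0616 CPM per kb stood near the end. In siALDOA libraries PARP14 was at 96.6 ± 7.37, DTX3L at 68.9 ± 3.62 and PARP4 at 59.4 ± 0.683 CPM per kb, so PARP4 moved from rank 1 to rank 3 of 18, and PARP10 from rank 8 to rank 5. PARP14 made up 18% to 18.4% of the summed per-kb level of the 18 genes in siControl libraries and 23.1% to 24.3% in siALDOA libraries, while PARP4 went from between 21.2% and 22.4% to between 14.1% and 15.4%. The length matters most for PARP1, whose exon union of 18399 bases is far longer than its longest transcript of 6210 bases. Per kb of the longest transcript PARP1 was at 12.8 ± 1.01 CPM per kb in siControl libraries. On that scale PARP12 was at 31.4 ± 1.08 CPM per kb, with a range that overlapped that of PARP9 at 29.25 ± 1.48, and PARP10 was at 27.2 ± 2.62 and ranked 6. The ranges of PARP12 and PARP10 then no longer overlapped that of TIPARP, at 18.2 ± 0.8096. PARP10 also no longer overlapped TNKS2, whereas PARP12 and TNKS2 were apart with either length. The places of PARP12 and PARP10 in the siControl order thus depend on the length used.

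**Figure D4:**
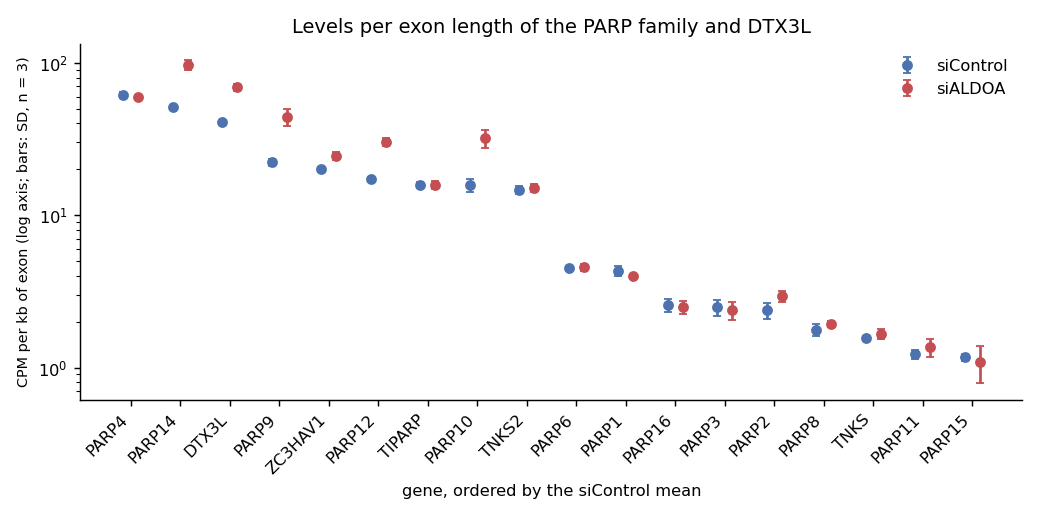
Mean level per kb of exon (log axis, bars: SD, n = 3) of 17 PARP family genes and DTX3L, in the order of the siControl means. PARP14, DTX3L, PARP9, PARP12 and PARP10 are shifted upward in siALDOA libraries, and PARP4, the highest gene in siControl libraries at 61.5 CPM per kb, is passed by PARP14 and DTX3L.

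Genes that work with PARP proteins were taken as lists, most of them given with their counts. Over all tested genes, edgeR called 4.36% higher and 5.29% lower, and a short list can hold 0 calls at these shares. Among factors of interferon signaling, STAT2 had a log2 fold change of 0.78 (adjusted p = 1.63e-07 in edgeR's quasi-likelihood test) and IRF1 of 0.39 (adjusted p = 0.00196). IRF9 had 0.27 (adjusted p = 0.0253) and was not called in 5 of 16 alternative settings. The kinase JAK1 had -0.15 (adjusted p = 0.163) with all siALDOA libraries below the siControl libraries, and it, TYK2, IFNAR1 and IFNAR2 were not called.

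Enzymes that remove or read ADP-ribose had no calls. Of 12 genes, 12 were tested, and 0 were called higher or lower by edgeR, DESeq2 or limma-voom. Beside the 4.36% and 5.29% of all tested genes, nothing is read from 0 calls among 12 genes. At an unadjusted p under 0.05 edgeR gave 1 higher and 2 lower. PARG, which degrades poly(ADP-ribose) chains, had a log2 fold change of 0.017 (adjusted p = 0.923). NUDT5, which hydrolyzes ADP-ribose, was the most abundant of the list and had 0.067 (adjusted p = 0.593). NUDT16, which acts on related substrates, had -0.15 (adjusted p = 0.191), with all siALDOA libraries below the siControl libraries. The median was 0.050. Of the other Deltex genes, DTX4 averaged 212 ± 5.25 CPM in siALDOA cells and 199.4 ± 11.04 CPM in siControl cells (SD, n = 3 each), with a difference of 0.090 on the log2 scale (adjusted p = 0.376), and DTX2 had 0.10 (adjusted p = 0.560). DTX1 and DTX3 had too few counts to be tested. DTX3L was therefore the only tested Deltex gene whose groups did not overlap.

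Among 12 break repair partners of PARP1 and PARP2, 11 were tested and 0 were called by edgeR, DESeq2 or limma-voom, with 1 at an unadjusted p under 0.05. With 4.36% of all tested genes called higher and 5.29% lower, nothing is read from this either. XRCC5, a Ku subunit and the most abundant of them, had a log2 fold change of -0.0092 (adjusted p = 0.945), and the other Ku subunit XRCC6 had -0.014 (adjusted p = 0.915). XRCC1, the scaffold that binds poly(ADP-ribose), had 0.11 (adjusted p = 0.436), and TDP1, which clears blocked DNA ends, had 0.23 (adjusted p = 0.343). Neither was called, although all siALDOA libraries lay above the siControl libraries for both. The median was 0.014. MVP and TEP1, which form the vault particle with PARP4, had log2 fold changes of -0.050 (adjusted p = 0.698) and 0.11 (adjusted p = 0.384). Of 13 genes of NAD synthesis and use, 8 were tested, with 1 called higher and 1 lower, against 3 higher and 1 lower at an unadjusted p under 0.05. QPRT, the enzyme of NAD synthesis from tryptophan, had a log2 fold change of 0.22 (adjusted p = 0.0414). NNMT, which methylates nicotinamide, fell by 0.41 on the log2 scale (adjusted p = 0.0287). QPRT was not called in 5 and NNMT in 4 of 16 alternative settings. NMRK1, a nicotinamide riboside kinase, had the highest log2 fold change of the list at 0.43 (adjusted p = 0.108), with all siALDOA libraries above the siControl libraries, and was not called. NAPRT, which starts from nicotinic acid, had 0.016 (adjusted p = 0.910), and NAMPT, the rate-limiting enzyme of the salvage route, had 0.19 (adjusted p = 0.0849). Of 6 RNA decay partners of ZC3HAV1, 2 were called higher. TRIM25, a ubiquitin ligase that ZC3HAV1 needs, had a log2 fold change of 0.42 (adjusted p = 4.62e-05), and the exonuclease XRN1 had 0.21 with an adjusted p at the threshold of 0.05, and was not called in 8 of 16 alternative settings. KHNYN, the nuclease partner, had -0.11 (adjusted p = 0.2399), with all siALDOA libraries below the siControl libraries.

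**Figure D5:**
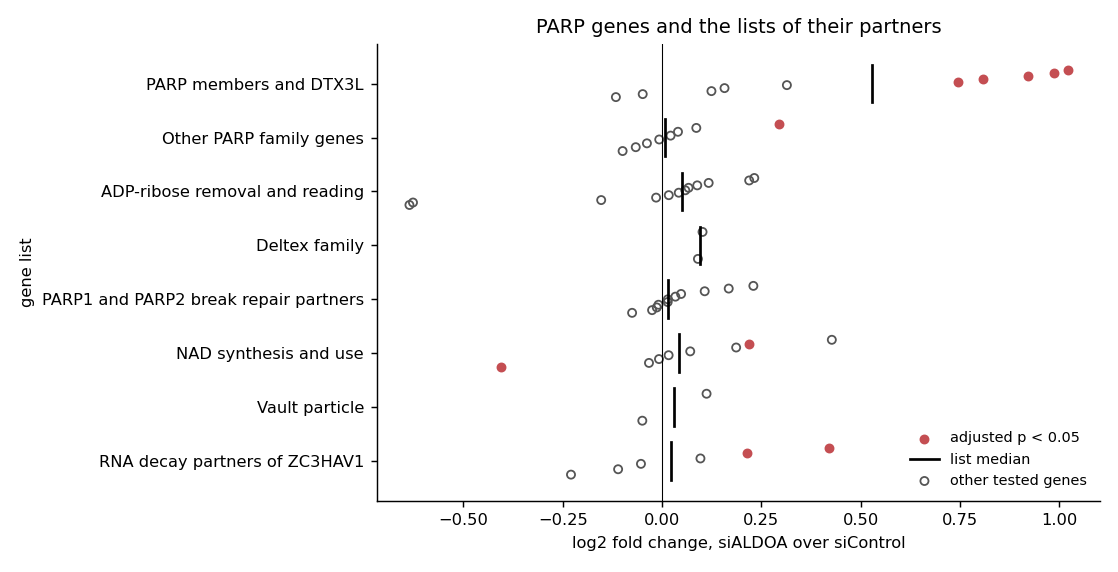
Log2 fold change of each tested gene by list, with filled points for an adjusted p < 0.05 in edgeR and a bar at the list median. The 5 filled points of the PARP genes and DTX3L lie between 0.74 and 1.02, whereas the lists for ADP-ribose removal and break repair hold open points with medians of 0.050 and 0.014. Filled points also stand in the lists of other PARP family genes, NAD synthesis and use, and RNA decay partners. The interferon signaling list is not drawn.

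Profiles over the 6 libraries were compared as the root mean square difference of centered log2 CPM. Over 13723 genes whose mean reached 1 CPM, PARP10 was nearest to PARP9, with a difference of 0.045, and HERC6 at 0.046, UBA7 at 0.056 and LAP3 at 0.058 were also among the 5 nearest. PARP14 ranked 6, PARP12 ranked 20 and DTX3L ranked 44, at a difference of 0.15 from PARP9. DTX3L was thus farther from PARP9 than PARP10, which lies on another chromosome. Nearest to PARP14 were AQP5 at 0.021, ANGPTL6 at 0.040, OGFR at 0.064, RNF213 at 0.069 and HERC6 at 0.069, with PARP9 ranked 6 and PARP12 ranked 7. The overlapping members were far from both, from rank 783 for PARP2 to rank 9452 for PARP1 relative to PARP9. These ranks share the libraries and the contrast with the values above and are a description.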

How the data were processed

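RNA-Seq of HT29 cells comprised 3 siALDOA and 3 siControl libraries. Alignment by the authors was to hg38 (tophat2), gene counting was with gfold, and the deposited files hold raw counts per gene symbol. The annotation, the strand setting and the treatment of reads with several matches are not given in the sources used here.

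All 15307 genes that passed filterByExpr were tested with edgeR 4.0.16 in R 4.3.3, with TMM normalization, the quasi-likelihood F-test and Benjamini-Hochberg adjustment (threshold 0.05), without covariates. CPM used TMM library sizes, and log2 CPM a prior count of 2. Standard errors were derived from the F statistic, and 95% intervals use the fit's degrees of freedom. The fit was tested on simulated counts with known changes. The main fit did not pair samples by replicate number, since the labels do not state a pairing. Alternatives were DESeq2 1.42.0, voom from limma 3.58.1, other scalings and filters, leaving out each library, and a replicate block.

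Gene spans and lengths came from GENCODE release 44 and promoters from RefSeq GRCh38.p14, matched by symbol. The members and lists were chosen with earlier results of these data known. Named are all members, the other PARP family genes, partner list genes past the threshold and the 2 most abundant of each partner list (among them JAK1, NUDT16, KHNYN, NAMPT and XRCC6), and the 5 genes nearest to PARP9 and to PARP14. The cell type markers did not follow this rule. PARG, XRCC1, TDP1, NMRK1, TYK2, IFNAR1 and IFNAR2, the chromosome 3 neighbors and the keratins were named after their values were seen. PARP11 rested on 205 to 289 counts per library. A gene that this rule names, and the counts of its list, are not reported here.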

Additional observations from a re-analysis of the deposited data

How the results depend on the processing

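The calls of PARP9, PARP10, PARP12, PARP14 and DTX3L were made in all 16 alternative settings and those of the other 5 genes in none. Over these settings the log2 fold changes ranged from 0.91 to 1.08 for PARP9, 0.94 to 1.13 for PARP10, 0.78 to 0.88 for PARP12, 0.87 to 1.00 for PARP14 and 0.71 to 0.82 for DTX3L. With library totals only, the median of all tested genes was 0.075, 279 genes were called lower in place of 810, and the values of PARP4 (0.026), PARP3 (0.013), PARP16 (0.030) and TIPARP (0.065) turned positive. With totals that left out ribosomal RNA genes, the median was 0.0099 and 760.0 genes were called lower, and PARP4 (-0.041), PARP3 (-0.059) and PARP16 (-0.030) were negative again, while TIPARP was at 0.00030. With each library left out in turn, between 359 and 644 genes were called higher, with 359 without siControl replicate 2 and 363 without siControl replicate 3. Between 471 and 790.0 genes were called lower, with 490.0 and 471 without those libraries. The sign turned within these ranges for PARP3 (-0.16 to 0.029), PARP6 (-0.0054 to 0.063), PARP15 (-0.33 to 0.072), PARP16 (-0.11 to 0.043), TNKS2 (-0.0094 to 0.090) and TIPARP (-0.059 to 0.029), none of which was called.

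The labels do not state whether libraries with the same replicate number were paired. Their deviations from the group means correlated at 0.035, 0.027 and 0.026, and each correlated best with its own number. Such small values over all genes cannot decide whether single genes share a replicate effect. With a replicate block 987 genes were called higher and 1175 lower, against 668 and 810 without it. Of the 10 genes 5 were higher and 0 lower, as without the block. Levels per kb depended on the length used, since 16 of 18 moved beyond the spread and 10 genes changed rank with the longest transcript.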
